A study of Bos taurus with 4 samples.

Results

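The genes described here were 8 plasma membrane amino acid transporter genes of skeletal muscle, *SLC7A5*, *SLC3A2*, *SLC38A1*, *SLC38A2*, *SLC1A5*, *SLC7A1*, *SLC7A6* and *SLC7A8*. Their probes were found through the reference transcript accession that the array design gives to each non-control probe. In this way 13 of the 43653 probes were found, and they stood for 6 of the 8 genes: 5 probes for *SLC38A2*, 3 for *SLC7A5*, 2 for *SLC3A2* and 1 each for *SLC1A5*, *SLC7A1* and *SLC7A8*. No probe carried a matching accession for *SLC38A1* or *SLC7A6*, and neither gene was analysed here. The samples were *m. semitendinosus* of 15-month-old bulls of the beef breed Hereford (HER) and the dairy breed Holstein-Friesian (HF), with 4 bulls per breed. RNA of 1 HER bull and 1 HF bull was hybridised to each of 4 dual-colour Agilent bovine arrays, and the comparison addressed how the muscle transcriptome differs between a beef and a dairy breed. The muscle had been cleared of connective tissue and fat before RNA was isolated.

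Amino acids enter muscle fibres through transporters of several families. The system L exchangers are dimers of the heavy chain 4F2hc, encoded by *SLC3A2*, with a light chain such as LAT1 (*SLC7A5*) or LAT2 (*SLC7A8*), and they carry leucine and other large neutral amino acids in exchange for amino acids such as glutamine. ASCT2 (*SLC1A5*) and the sodium-coupled SNAT2 (*SLC38A2*) carry small neutral amino acids, glutamine among them, and CAT1 (*SLC7A1*) carries arginine and lysine. Leucine and arginine inside the cell are sensed upstream of mTORC1, the kinase complex that promotes protein synthesis, and a shortage of amino acids induces *SLC38A2* and other genes through the transcription factor ATF4.

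All values are ratios of the Cy5 to the Cy3 sample of an array on the log2 scale, after background correction and loess normalization. The dye labels put HER in Cy3 and HF in Cy5 on all 4 arrays. They also carry a note of a dye swap, and the fold changes tabulated in the study take Cy5 as HER. Which breed a sign belongs to was therefore not settled here: "lower in the Cy5 sample" means lower in HF by the labels and lower in HER by the study's tables. With 1 dye orientation throughout, an effect of the dye on a probe cannot be told apart from the breed.

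The median signal over probes was 129 to 160.5 in Cy5 and 77 to 138 in Cy3, over a median background of 37 to 41, and no spot was saturated. The number of arrays limits the precision. Muscle was borne out by its defining markers: 9 of 10 had a probe with a matching accession and all 9 were tested. The log2 of their summed linear level was 20.58 to 20.81 in the Cy5 samples and 20.39 to 20.58 in the Cy3 samples. Of these 9 none was called by limma (3 at an unadjusted p under 0.05, 3 called by the separate-channel fit). None was called among 7 endothelial, 7 leukocyte, 4 red blood cell and 5 adipocyte markers either, with 1, 3, 0 and 1 at an unadjusted p under 0.05 and 0 by the separate-channel fit. Over all named genes, 28.3% were at such a p and 12.1% were called by the separate-channel fit. Of 6 fibroblast and tendon markers, limma called 2 lower in the Cy5 sample and none higher, beside 1.54% and 2.92% of all named genes. With median centring in place of loess, 6 of the 9 muscle markers were called higher and none lower, beside 43.7% of all named genes called higher. The fibroblast and tendon markers then had 2 called higher and 2 lower.

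Among the transporters, *SLC3A2* was lower and *SLC1A5* higher in the Cy5 sample, by 2.48-fold and 2.21-fold, at the brightest probe of each gene. The light chain genes *SLC7A5* and *SLC7A8* lay near 0, at mean log2 ratios of 0.11 and -0.09, and *SLC38A2* was at -0.38 without passing the test. With limma and an adjusted p under 0.05 as the threshold, 2 of the 5 tested genes were thus called, 1 higher and 1 lower, against 4.46% of all 9425 named genes tested at their brightest probe (2.92% higher and 1.54% lower). Counted by probe, 3 of 12 were called, 1 higher and 2 lower, against 3.32% of all probes (1.97% higher and 1.35% lower). The study itself required a 1.3-fold change and p of 0.05 or less in a t test without adjustment. With the methods' t-test, *SLC3A2* and *SLC1A5* were again the genes past these thresholds, 2 of 5 against 11.3% of the named genes. With limma's unadjusted p in its place *SLC38A2* passed as well, at 1.301-fold only just past the fold threshold. This made 3 of 5 genes and 5 of 12 probes, against 17.8% of the named genes and 14.4% of all probes. The 5 genes ranged from -1.31 to 1.14 with a median of -0.09, beside 0.02 over all named genes. In whole muscle, fewer cells that express a gene and less RNA per cell cannot be told apart.

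**Figure D1:**
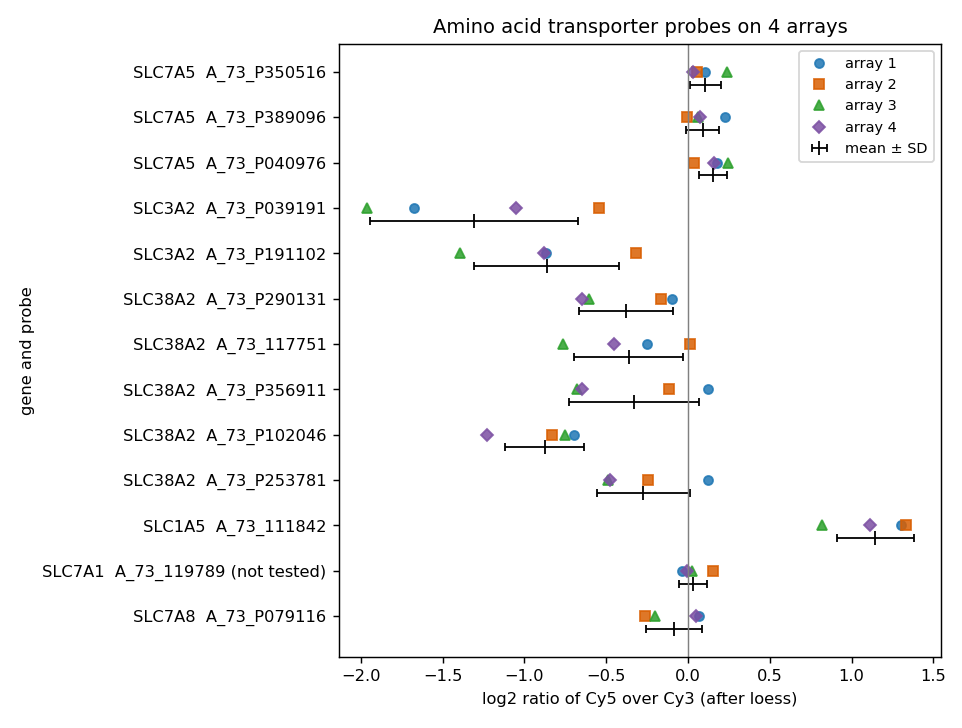
Normalized log2 ratio, Cy5 over Cy3, on the horizontal axis for the 13 transporter probes on the vertical axis, with a coloured symbol for each of the 4 arrays and a black mark with a bar for their mean ± SD. Both *SLC3A2* probes lie below 0 and the *SLC1A5* probe lies above 0 on all 4 arrays, while the *SLC7A5* and *SLC7A8* probes lie between -0.26 and 0.24.

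*SLC3A2*, the heavy chain that brings the system L light chains to the cell surface, was the transporter with the largest ratio. Its brightest probe, A_73_P039191, was at -1.67, -0.55, -1.97 and -1.05 on arrays 1 to 4, lower in the Cy5 sample on 4 of 4 arrays. The mean was -1.31 ± 0.64 (SD, n = 4, adjusted p = 0.0492 from limma, 95% interval -1.89 to -0.73), and 0.865% of the tested probes had a larger ratio in size. Arrays 1 and 3 were the lowest and array 2 was the closest to 0. The dimmer probe A_73_P191102 was at -0.87, -0.32, -1.40 and -0.88, with a mean of -0.86 ± 0.44 (SD, n = 4, adjusted p = 0.0558). Both probes put array 3 lowest and array 2 highest. A single sign on all 4 arrays was shown by 32.7% of all tested probes, and 14.5% were lower on all 4.

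The normalized log2 levels of the separate channels show where array 2 differed. At the brightest *SLC3A2* probe the Cy5 samples of arrays 1 to 4 were at 10.49, 10.26, 10.05 and 11.15. The Cy3 samples were at 12.17, 10.80, 12.02 and 12.20. The Cy5 samples lay below all 4 Cy3 samples on 3 arrays, and the groups overlapped because the Cy5 sample of array 4 was above the Cy3 sample of array 2. Array 2 thus had a low Cy3 sample rather than a high Cy5 sample. Before normalization the Cy5 signal of array 2 (2100) was above its Cy3 signal (844.5), and on arrays 1, 3 and 4 the Cy5 signals of 1830, 1632 and 3533 were below the Cy3 signals of 2173, 3160 and 5008.

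The call of *SLC3A2* was close to the threshold. It was lost without any 1 of the arrays (adjusted p from 0.0870 to 0.121), when dim probes were tested too (0.0626), over the mean of both probes (-1.09, adjusted p = 0.0534) and with median centring in place of loess (-0.65, adjusted p = 0.0873). *SLC3A2* is also among the genes that the study tabulated from these arrays, so its call is not independent evidence.

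**Figure D2:**
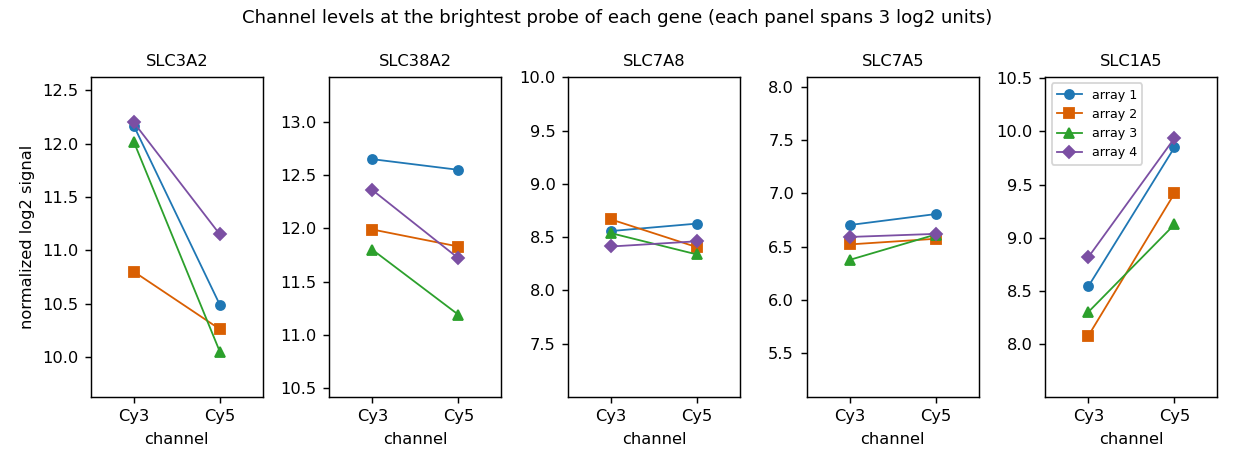
Normalized log2 signal (vertical axis) of the Cy3 and the Cy5 sample (horizontal axis) at the brightest probe of the 5 tested genes, with a line for each of the 4 arrays; levels may not be compared between panels. All 4 lines fall for *SLC3A2* and *SLC38A2* and rise for *SLC1A5*, and the low Cy3 sample of array 2 stands apart for *SLC3A2*.

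Over the 4 arrays the named genes with the smallest root-mean-square difference from it were the collagen gene *COL1A2* (0.12 log2 units), *SPARC*, which encodes a collagen-binding matrix protein (0.18), and the glycolytic enzyme gene *PGK1* (0.23), out of 9424 genes. *COL1A2* was at -1.87, -0.42, -1.98 and -1.09 on arrays 1 to 4. *SPARC* was at -1.51, -0.86, -1.90 and -1.09, and *PGK1* at -1.43, -0.26, -1.85 and -0.82. At the brightest probe *SPARC* was called (adjusted p = 0.0326 from limma) and *COL1A2* and *PGK1* were not, and of the dimmer probes all 5 for *SPARC* and 1 of 5 for *COL1A2* were called. A like course over the arrays is what chose these genes.

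Cy5 minus Cy3, the log2 of the summed linear level of the 6 tested fibroblast and tendon markers differed by -1.17, 0.22, -0.74 and -0.74 on arrays 1 to 4. It was 14.87 to 15.64 in the Cy5 samples and 15.42 to 16.36 in the Cy3 samples, so that array 2 had the highest difference here as well. Such a sum is weighted towards the brightest genes. Within this list the collagen genes *COL1A1* (-2.05) and *COL3A1* (-1.68) were called lower, *LUM* was at -0.77, and *PDGFRA* (0.49), *DCN* (0.42) and *FMOD* (0.11) were above 0. None of these 6 markers was at background. The part of these cells in the *SLC3A2* ratio was not tested.

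*SLC7A5*, the leucine-carrying partner of *SLC3A2*, was dim. The raw signal of its brightest probe, A_73_P350516, was 87 to 103 in Cy5 and 58 to 92 in Cy3, over local backgrounds of 34 to 46. Its log2 ratios were 0.10, 0.05, 0.24 and 0.03 on arrays 1 to 4, with a mean of 0.11 ± 0.09 (SD, n = 4, adjusted p = 0.464 from limma). The 95% interval of the ratio, -0.09 to 0.30, corresponds to 0.942-fold to 1.23-fold. The other *SLC7A5* probes were at 0.09 ± 0.10 and 0.15 ± 0.09 (SD, n = 4). Of the 12 values of the 3 probes 11 were above 0, but the probes read the same 4 arrays and are not independent. With median centring the 3 means were -0.06, -0.09 and -0.08. None of the 3 probes was called.

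At the third *SLC7A5* probe, A_73_P040976, the 4 Cy5 levels (6.48 to 6.59) did not overlap the 4 Cy3 levels (6.26 to 6.44), which was also the case for 14.1% of all tested probes. On 1 array this probe was not well above background in Cy3. With offset-based background correction, ratios of signals this close to background are drawn towards 0, and with plain subtraction *SLC7A5* was at 0.29 and still not called.

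*SLC7A8*, the other light chain gene with a probe among the 8 listed genes, was at 0.07, -0.26, -0.20 and 0.05 on arrays 1 to 4. The mean was -0.09 ± 0.17 (SD, n = 4, adjusted p = 0.627 from limma), above 0 on 2 arrays and below 0 on 2. Its 95% interval of -0.31 to 0.14 corresponds to 0.804-fold to 1.10-fold. The Cy5 levels of 8.34 to 8.63 overlapped the Cy3 levels of 8.41 to 8.67.

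The heavy chain gene was set against the light chain genes *SLC7A5* and *SLC7A8* within each array. Other light chain genes, described below, were not part of this comparison. The log2 ratio of *SLC3A2* minus that of *SLC7A5* was -1.78, -0.60, -2.20 and -1.08 on arrays 1 to 4, with a mean of -1.42 ± 0.71 (SD, n = 4). *SLC3A2* minus *SLC7A8* was -1.74, -0.29, -1.77 and -1.10, with a mean of -1.22 ± 0.70 (SD, n = 4). The ratio of the heavy chain gene was below that of either of these light chain genes on 4 of 4 arrays, which says nothing of their levels. An exact two-sided sign-flip permutation test gave p = 0.13 for both (0.188 after Benjamini-Hochberg adjustment over the 3 pairs), which is the smallest p that 4 arrays allow. *SLC7A5* minus *SLC7A8* was 0.19 ± 0.22 (SD, n = 4, exact permutation p = 0.250), above 0 on 3 of 4 arrays. With median centring this difference was -0.40, and that between *SLC3A2* and *SLC7A5* shrank to -0.60 (exact permutation p = 0.375).

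*SLC1A5*, the glutamine carrier ASCT2, had the smallest p of the transporters. At its single probe, A_73_111842, the log2 ratios were 1.303, 1.335, 0.822 and 1.116 on arrays 1 to 4. The mean was 1.14 ± 0.24 (SD, n = 4, adjusted p = 0.0214 from limma, 95% interval 0.87 to 1.41), higher in the Cy5 sample on 4 of 4 arrays like 18.3% of all probes, and it ranked 77th by p among 32606 probes. The Cy5 levels were 9.85, 9.42, 9.13 and 9.94, and the Cy3 levels were 8.55, 8.08, 8.31 and 8.82. Every Cy5 sample was above every Cy3 sample, and 14.1% of all tested probes also had channel levels that did not overlap. Its raw signals, 823 to 1416 in Cy5 and 127 to 497.5 in Cy3, stood well clear of the background on every array.

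Array 3 had the lowest ratio and array 2 the highest for both *SLC1A5* and *SLC3A2*, so that the array with the smallest *SLC3A2* difference had the largest *SLC1A5* difference. *SLC1A5* stayed called with every background correction tried, with the scanner-processed signals and with median centring, from 1.14 to 1.64. It was not called without any 1 array (1.08 to 1.25, adjusted p = 0.0549 to 0.0840 from limma), where only 5 to 115 of all probes were called. The methods' t-test did not call it after adjustment (0.169), but that test called 0 of 32606 probes.

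The genes most like *SLC1A5* over the 4 arrays were *GPX3*, a secreted glutathione peroxidase (root-mean-square difference 0.06), the focal adhesion gene *TES* (0.15) and *H3C13*, a histone H3 gene of a family of near-identical copies (0.16). *GPX3* was at 1.23, 1.29, 0.79 and 1.05 on arrays 1 to 4, and its other 3 probes had means of 0.93 to 1.19, all called. *TES* was at a mean of 1.14 and *H3C13* at 1.05, but other probes were at 0.42 for *TES* and 0.25 for *H3C13*, neither called. Only 1 probe was found for *SLC1A5*, so such a difference between probes could not be looked for.

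*SLC38A2*, the SNAT2 gene, was covered by 5 probes, which allowed the ratio to be read repeatedly in the same samples. The brightest, A_73_P290131, was at -0.10, -0.17, -0.61 and -0.65 on arrays 1 to 4, with a mean of -0.38 ± 0.29 (SD, n = 4, adjusted p = 0.134 from limma). Its 95% interval was -0.69 to -0.07, or 0.622-fold to 0.950-fold. A further 3 probes had means of -0.36, -0.33 and -0.27 and were not called (adjusted p = 0.176 to 0.264). In these 4 probes arrays 1 and 2 lay near 0 (-0.25 to 0.12) and arrays 3 and 4 lower (-0.77 to -0.46), with no overlap.

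The remaining *SLC38A2* probe, A_73_P102046, ran lower than the others. It was at -0.70, -0.83, -0.75 and -1.23 on arrays 1 to 4, with a mean of -0.88 ± 0.24 (SD, n = 4), and was called (adjusted p = 0.0305). On arrays 1, 2 and 4 it was the lowest of the 5 probes by a clear margin, and on array 3 it was within their range. The call was lost without any 1 array (adjusted p = 0.0592 to 0.107 from limma), where only 5 to 115 of all probes were called. It was also lost with median centring (-0.28, adjusted p = 0.279).

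The channel levels at the brightest *SLC38A2* probe were 12.55, 11.83, 11.19 and 11.72 in Cy5 and 12.65, 11.99, 11.80 and 12.36 in Cy3. The groups overlapped, and the bulls of array 1 had the highest level in both channels. The sign of *SLC38A2* rested on the normalization: the raw Cy5 signals of this probe, 8031, 6373, 3624 and 5307, were above the Cy3 signals of 2985, 1909 and 2694 on arrays 1 to 3 and below that of 5543 on array 4. With median centring the mean was 0.32 (adjusted p = 0.254), while the median over all tested probes moved to 0.24.

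*SLC7A1*, the arginine and lysine carrier CAT1, was not tested. Its only probe was well above background on 2 of 4 arrays in Cy5 and on 1 of 4 in Cy3, with raw signals of 49.5 to 60 and 50 to 71. Its log2 ratios of -0.04, 0.15, 0.02 and -0.01 are ratios of signals at or near background.

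**Figure D3:**
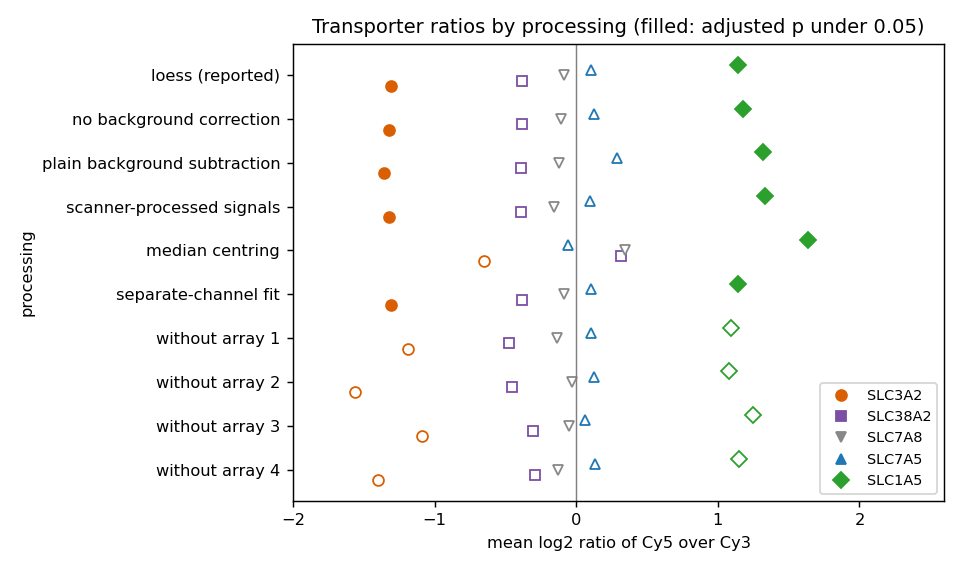
Horizontal axis, mean log2 ratio (Cy5 over Cy3) at the brightest probe of the 5 tested transporters. Vertical axis, the ways of processing, with filled symbols where limma gave an adjusted p under 0.05. *SLC3A2* stays below and *SLC1A5* above 0 in all of them, and *SLC38A2*, *SLC7A8* and *SLC7A5* change side with median centring.

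Other amino acid transporters were set beside these genes. Of 26 listed, 15 had a probe with a matching accession and 12 were tested, and none was called by limma. At an unadjusted p under 0.05 there was 1, against 28.3% of all named genes, and the separate-channel fit called 1, against 12.1%. The median was 0.06, from -0.96 to 0.23. The lowest was *SLC7A10*, a light chain that carries small neutral amino acids and is known from adipocytes and brain, at -1.42, -0.85, -1.34 and -0.22 on arrays 1 to 4. Its mean was -0.96 ± 0.55 (SD, n = 4, adjusted p = 0.0629 from limma). Its 4 Cy5 levels lay below all 4 Cy3 levels, and 14.1% of all tested probes also had channel levels that did not overlap. The log2 of the summed linear level of the 5 tested adipocyte markers differed by -0.15, -0.28, 0.02 and -1.26 on the same arrays. It was 10.79 to 12.62 in Cy5 and 12.02 to 12.77 in Cy3, and none of the 5 was at background. The markers did not run together: on array 1 *FABP4* was at -2.59, *CIDEC* at -1.67 and *PLIN1* at -0.80, while *LPL* was at 0.96 and *LEP* at 0.15. Their part in the *SLC7A10* ratio was not tested.

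The next in this list were *SLC38A9*, a lysosomal arginine sensor, at -0.19 ± 0.14, the glutamate carrier gene *SLC1A3* at 0.23 ± 0.21, and *SLC7A7*, a light chain for cationic amino acids that also pairs with 4F2hc, at -0.15 ± 0.10 (SD, n = 4 for each). None of them passed. Of the dimmer probes for *SLC38A9*, 1 was at 0.48 (adjusted p = 0.0537) but not well above background in Cy3 on any array, and the other was at -0.02. A dimmer probe for *SLC7A7* was at 0.50 (adjusted p = 0.0728).

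Genes of the amino acid response were spread to both sides. All 23 with a matching accession, of 28 listed, were tested, and none was called by limma. At an unadjusted limma p under 0.05 there were 6 higher and 3 lower, and the separate-channel fit called 2. *DDIT3*, which encodes the stress factor CHOP, was at 0.86 ± 0.44, *DDIT4*, an inhibitor of mTORC1 signalling, at 1.29 ± 0.76, the pseudokinase gene *TRIB3* at 0.34 ± 0.10 and the stress gene *NUPR1* at 0.70 ± 0.59 (SD, n = 4 for each, adjusted p = 0.0565, 0.0619, 0.0719 and 0.128). Each of these was higher in the Cy5 sample on 4 of 4 arrays at the brightest probe, like 18.3% of all tested probes. Another 4 genes of the list were lower on 4 of 4 arrays, like 14.5% of all tested probes. These 4 include *VLDLR*, at only -9.6e-05 on array 3, and *MTHFD2*, well above background in Cy3 on only 1 array. The *TRIB3* probe was near background in Cy3, and the other 2 probes for this gene were at 0.08 and 0.06. *ATF4* itself was at 0.14 ± 0.26 and its target *ASNS*, asparagine synthetase, at -0.94 ± 1.31 (SD, n = 4 for both), a pair named after their values were seen. *ASNS* rested on array 4, at -2.78, without which its mean was -0.32. The median over the list was 0.02. The 9 of 23 at an unadjusted p under 0.05 stand beside 28.3% of all named genes, and the 2 of the separate-channel fit beside 12.1%. The 8 called higher with median centring (1 was called lower) stand beside 43.7%.

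Of 35 genes that link amino acid sensing to mTORC1, 25 were tested and none was called by limma (6 higher and 3 lower at an unadjusted p under 0.05, 3 called by the separate-channel fit). *SESN1*, of the leucine-sensing sestrin family, was at 1.45, 1.77, 1.65 and 0.16 on arrays 1 to 4. Its mean was 1.26 ± 0.75 (SD, n = 4, adjusted p = 0.0636), with array 4 far below the others, and a dimmer probe was at 0.56. The Rag GTPase gene *RRAGC* was at 0.52 ± 0.27, the arginine sensor gene *CASTOR1* at -0.40 ± 0.24 and *WDR24*, of the GATOR2 complex, at -0.34 ± 0.20 (SD, n = 4 for each), and none passed. The median over the list was 0.08, and with median centring 16 of the 25 were called higher, beside the same 43.7% of all named genes. The background shares at an unadjusted p under 0.05 and in the separate-channel fit are the 28.3% and 12.1% given above.

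Of 28 genes of branched-chain amino acid and glutamine metabolism, 23 were tested. By limma 1 was called lower and none higher, beside 1.54% and 2.92% of all named genes. At an unadjusted p under 0.05 there were 1 higher and 3 lower, beside 28.3% of all named genes. The separate-channel fit called 3, beside 12.1%. The gene called by limma was *ACADSB*, a dehydrogenase of isoleucine breakdown, at -0.40, -0.74, -0.70 and -0.40 on arrays 1 to 4. Its mean was -0.56 ± 0.18 (SD, n = 4, adjusted p = 0.0449 from limma). Its Cy5 levels were all below its Cy3 levels, a lack of overlap shared by 14.1% of all tested probes. *BCKDHA*, a subunit of the branched-chain ketoacid dehydrogenase, was at 0.42 ± 0.15, *PCCB*, of propionyl-CoA carboxylase, at -0.52 ± 0.26 and *BCKDK*, the kinase that inhibits the dehydrogenase, at -0.36 ± 0.28 (SD, n = 4 for each), with a dimmer *BCKDK* probe at -0.13. The adjusted p-values were 0.0605, 0.0652 and 0.144. The median over the list was 0.03. The call of *ACADSB* was lost without any 1 array, where only 5 to 115 of all probes were called. With median centring 9 of the 23 were called higher and none lower, beside 43.7% of all named genes called higher.

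**Figure D4:**
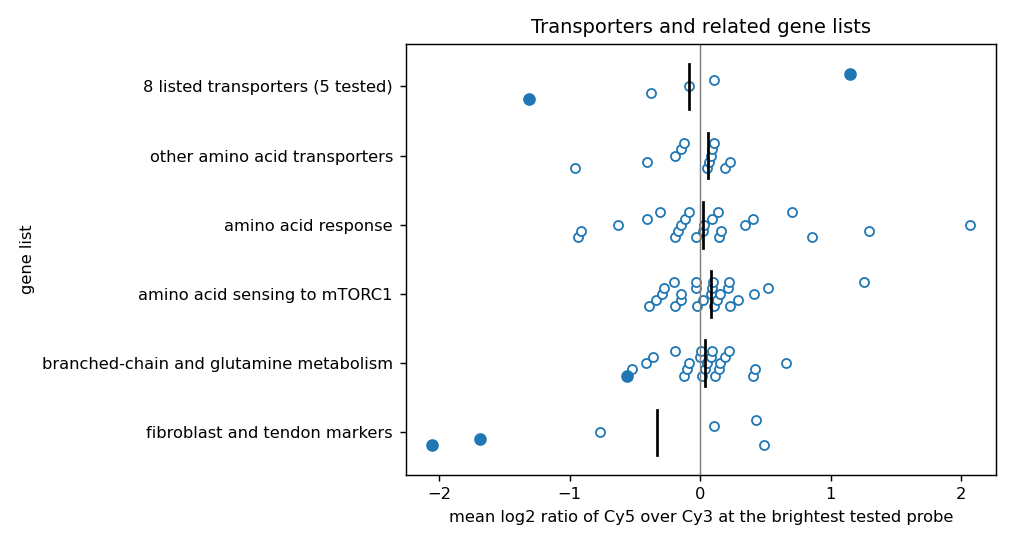
Gene lists on the vertical axis against the mean log2 ratio (Cy5 over Cy3) of each gene at its brightest tested probe, with 1 symbol per gene, filled where limma gave an adjusted p under 0.05, and a black bar at the list's median. The called genes are *SLC3A2* and *SLC1A5* among the transporters, *ACADSB* in branched-chain metabolism and *COL1A1* and *COL3A1* among the fibroblast and tendon markers.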

How the data were processed

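The authors' intensity values, as deposited, came from Agilent Feature Extraction 10.7.3.1, per the file headers: a median signal and a median local background for every spot and channel, beside processed signals that are background-subtracted and dye-normalized. The deposited log10 ratios of the series table equalled the scanner's own on every array. The array design was annotated against Btau_3.1, so no coordinates are given.

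Background was corrected by normexp (offset 50) and ratios were normalized by loess within arrays, control spots having weight 0. Outlier-marked spots were dropped and repeated spots averaged per probe. Probes well above background in 1 channel on all 4 arrays were tested against 0, 32606 in all (limma 3.58.1, R 4.3.3: lmFit, eBayes), with two-sided p-values adjusted by Benjamini-Hochberg over all of them. Symbols came from the RefSeq table of ARS-UCD2.0 (23492 probes matched). Channel levels were made comparable by Aquantile. Genes were counted at their brightest tested probe. Named were the members at every probe, the genes of each list with the smallest p (up to 4) and the 3 genes most like each called member. Members and lists were chosen with earlier results of these data known. Each array holds other bulls, so the spread between arrays is between pairs of bulls. The alternatives were other background corrections, signals, normalization, filters, variance models, tests and thresholds, the mean over probes, and leaving out each array. The limma fit was tried on simulated ratios with independent noise and added shifts. These ratios entered after normalization, so the choice of normalization was not tested that way.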

Additional observations from a re-analysis of the deposited data

Results flagged for a closer look

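Of 35 probes checked, the members and the named genes, 1 had an array apart from the other 3. *BCKDK*, the kinase of the branched-chain ketoacid dehydrogenase, was at 0.0622 on array 3 and between -0.53 and -0.48 on the other arrays. A dimmer probe for the gene did not set array 3 apart, at -0.01, -0.13, -0.13 and -0.27 on arrays 1 to 4. About 1 in 20 such groups would stand apart by chance, and the cause was not tested.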

How the results depend on the processing

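*SLC3A2* and *SLC1A5* kept their direction under all 17 alternatives, and their calls under 9 and 12. Of the 5 tested transporters 2 were called, but 1 with median centring, 1 without the filter on dim probes, 1 over the mean of all probes, 0 by the methods' t-test and 0 to 0 when each array was left out. With median centring *SLC38A2* turned to 0.32, *SLC7A8* to 0.35, *SLC7A5* to -0.0565 and *SLC7A5* minus *SLC7A8* to -0.40. In the order other transporters, amino acid response, sensing and branched-chain metabolism, the calls of 0, 0, 0 and 1 became 2, 9, 16 and 9 with median centring, 1, 3, 1 and 0 with an intensity trend and robust prior, 1, 2, 3 and 3 in the separate-channel fit, 1, 7, 4 and 3 by the study's thresholds on limma's unadjusted p and 1, 2, 3 and 3 by them on the methods' t-test, an alternative chosen after seeing the data. The 9 calls of branched-chain metabolism with median centring were all higher. The amino acid response had 2 calls with plain background subtraction, 1 with the scanner-processed signals, 1 with the series table and 1 when both channels had to be well above background. Branched-chain metabolism had 0 under each of the first 3 of these, 0 by the methods' t-test and 0 to 0 when each array was left out. Over all probes the calls numbered 1083, of which 59.3% were higher in Cy5, but 10725 (93.4%) with median centring, 1666 with the trend, 3210 in the separate-channel fit, 4707 by the study's thresholds on limma's p, 2887 by them on the methods' t-test, 0 by the methods' t-test after adjustment (5936 at an unadjusted p under 0.05), 275 over genes and 5 to 115 without 1 array. Each ratio is taken within an array, so the main fit was already paired by array, and 1 group of arrays allowed no further pairing. The cause of these changes was not tested. Signals near background limit *SLC7A5* and *SLC7A1*.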
